A study of Mus musculus with 18 samples.

Results

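The genes described here are the 30 collagen chain genes outside cartilage that were listed in at least 1 of 3 deposited tables of mouse limb bud RNA, out of 14686 genes listed in any table. They were chosen by symbol, as all genes named Col, a number, a and a number, without the 6 chains typical of cartilage (Col2a1, Col9a1, Col9a2, Col9a3, Col11a1 and Col11a2). Of the 30, 28 were listed in the CD1 table (not Col6a6 and Col8a1), 27 in the e11.0 table (not Col4a6, Col6a6 and Col8a1) and 28 in the e11.5 table (not Col4a6 and Col19a1), with 26 in every table. Genes listed in a table exceeded 1 CPM (reads of a gene scaled to a fixed total of reads on listed genes) in at least 3 of its 6 libraries, so every count below is over listed genes only.

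The study profiled RNA of embryonic limb buds by sequencing, in 6 groups of 3 libraries each (18 in all). Wild-type CD1 forelimb buds at e10.5 (days of embryonic development) and wild-type CD1 hindlimb buds at e11.0, a pair of stages with matching morphology, addressed how the limb types differ. Hindlimb buds with wild-type Pitx1 and with Pitx1 null, all labelled BALB/c, were taken at e11.0 or e11.5 and addressed which part of the hindlimb network depends on Pitx1, which encodes a bicoid-type homeodomain factor active in hindlimb mesenchyme. Ribosomal depletion and a stranded protocol were used up to e11.0, and mRNA enrichment at e11.5, with replicates 1 and 2 stranded and replicate 3 unstranded. Nothing in the labels gives separate litters or pools for the replicates, so the p-values speak of the spread between these libraries, which may be technical, and the labels do not say which part of Pitx1 the null allele lacks.

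Collagens are secreted or membrane-bound proteins built from 3 chains wound into a triple helix. Fibrillar types here are I, III, V, XXIV and XXVII. Of these, I, III and V make up fibres of loose connective tissue, dermis, tendon and bone. Fibril-associated types (XII, XIV, XVI, XIX and XXII) sit on the surface of fibrils. Type IV makes the sheet of basement membranes with the multiplexins XV and XVIII nearby, type VI forms beaded filaments around cells, type VIII forms networks, and types XIII, XVII, XXIII and XXV span the cell membrane. In the early limb bud, undifferentiated mesenchyme lies under an ectoderm with its own basement membrane and is entered by vessels, muscle precursors and later nerves.

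The libraries held 17.4 to 53.6 M reads on listed genes, and 1 read was worth at most 0.0575 CPM. Pitx1 itself followed the labels. It was at 0.462, 0.327 and 0.266 CPM in CD1 forelimb and 223.4, 220.6 and 183.1 CPM in CD1 hindlimb. It fell from 135.7, 114.1 and 122.1 to 22.9, 19.3 and 21.3 CPM in the null at e11.0 and from 319.3, 329.6 and 364.5 to 72.1, 78.8 and 88.6 CPM at e11.5 (log2 fold change -2.07 ± 0.05 SE). Prrx1, a gene of limb mesenchyme, was at 314.7 to 909.3 CPM over the 18 libraries, and Tbx4, a hindlimb gene, at 5.70, 5.75 and 5.97 CPM in CD1 forelimb and 133.9, 133.7 and 113.6 CPM in CD1 hindlimb. Replicate 3 came from another run than replicates 1 and 2 at e11.0 and e11.5, and the CD1 titles name no run for it. Collagen levels moved with this split in CD1 and at e11.0. In CD1 the summed level of the 28 listed genes was 4135, 4483 and 2543 CPM in forelimb and 4616, 4420 and 2412 CPM in hindlimb, with replicate 3 below both others for 24 of 28 genes in each group (42.7% and 45.6% of all listed genes). At e11.0 replicate 3 was above both others for 22 of 27 genes in wild type and 19 of 27 in the null (48.1% and 51.4% of all genes). No such shift was seen at e11.5. There replicate 3 was above both others for 12 of 28 genes in wild type and 11 in the null (49.5% and 45.0% of all genes). It was below both for 4 and 11 (39.1% and 43.3%). The split of replicate 3 from replicates 1 and 2, called run here, was therefore a term in every main limma fit. Without this term 0 of these collagen genes were called in any of the 3 comparisons. This loss of calls was not limited to collagens. Among all 13540 genes of the CD1 table, 7 higher and 6 lower were called without the run term. The e11.0 table (14027 genes) then had 1 higher and 4 lower, and the e11.5 table (13478 genes) 2 higher and 9 lower.

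Between genes, levels are given per length, as CPM per kb of exon. The length counts every annotated exon of a gene, also those of transcripts that may not be made here. It was 12.4 kb for Col1a2, 6.56 kb for Col1a1, 8.33 kb for Col6a2 and 4.38 kb for Col6a1. Ranks and ratios between genes depend on this choice of length. Col3a1, the chain of type III collagen, was the most abundant of the set in 5 of 6 groups, from 68.9 ± 9.61 (SD, n = 3) CPM per kb in the e11.0 null to 103 ± 4.39 CPM per kb in the e11.5 wild type. In the e11.5 null Col4a1, a main chain of basement membrane, stood at the top with 90.7 ± 5.24 CPM per kb, above Col3a1 at 84.3 ± 1.08 CPM per kb, with overlapping libraries (84.9 to 95.1 and 83.1 to 85.1 CPM per kb). Col3a1, Col4a1, Col4a2 and Col18a1, the multiplexin of vascular and epithelial basement membranes, took ranks 1 to 4 in each group at e10.5 and e11.0. At e11.5 Col1a2, the second chain of type I collagen, held rank 3, at 79.7 ± 4.57 CPM per kb in wild type. Its partner Col1a1 was at 12.6 ± 8.12 CPM per kb in CD1 forelimb, 9.19 ± 6.59 in e11.0 wild type and 52.0 ± 11.7 in e11.5 wild type. The tables were normalised separately and stage goes with library type here, so the levels stand side by side without a test. Type VI chains were low, at 0.644 to 1.19 CPM per kb in e11.0 wild type and 2.70 to 4.11 CPM per kb for Col6a1, Col6a2 and Col6a3 in e11.5 wild type. Col14a1, a fibril-associated collagen of dense connective tissue, was at 0.482 ± 0.179 CPM per kb in e11.0 wild type, rank 26 of 27, and at 1.65 ± 0.327 CPM per kb in the e11.0 null, rank 16.

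**Figure D1:**
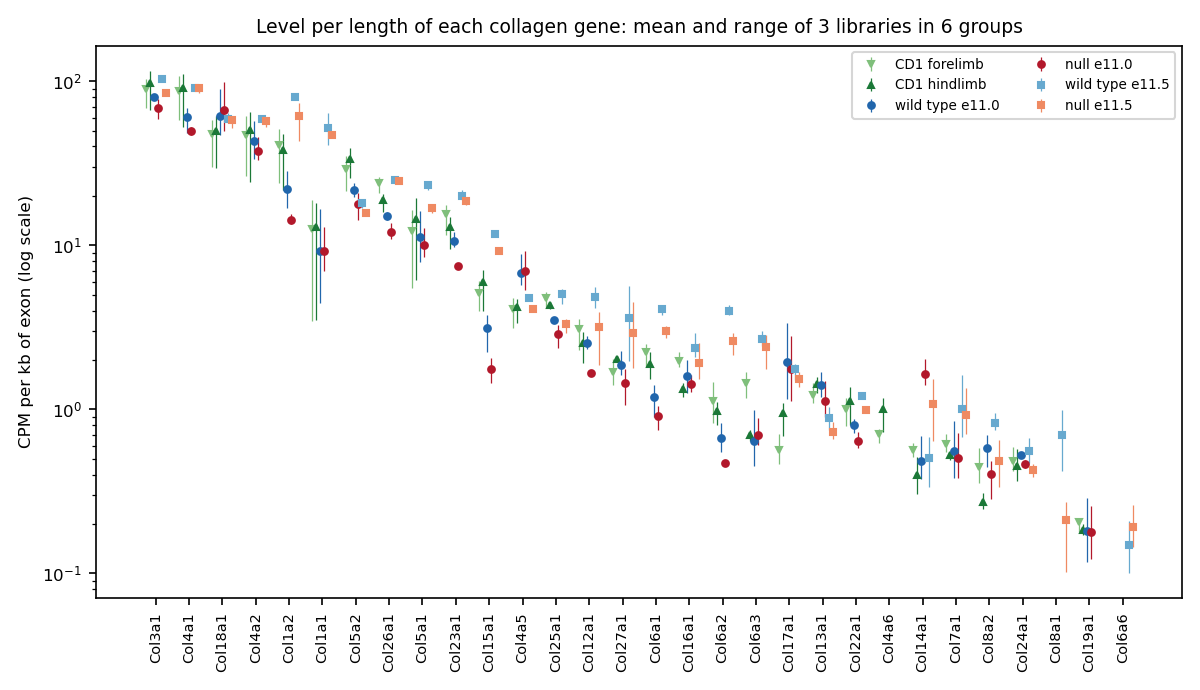
Level of each of the 30 collagen genes in CPM per kb of exon (vertical, log scale) in the 6 groups, with the mean of 3 libraries as a symbol and their range as a line; genes are ordered by level along the horizontal axis. Col3a1 and Col4a1 lie highest and Col19a1 and Col6a6 lowest.

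In the CD1 comparison 8 of 28 collagen genes (28.6%) passed the test, 3 higher and 5 lower in hindlimb, against 5.87% of all 13540 listed genes (2.41% higher and 3.46% lower). The test was limma on log2(CPM + 1), its p-values were adjusted by Benjamini-Hochberg across the whole table, and 0.05 was the threshold. Log2 fold changes are on that scale, which understates changes of low genes. All forelimb buds were from e10.5 and all hindlimb buds from e11.0, so limb and age cannot be told apart. Since bulk tissue was measured, fewer cells of a type and less RNA per cell cannot be told apart either. The genes lower in hindlimb were Col6a3, Col16a1, Col12a1, Col26a1 and Col23a1, and those higher were Col17a1, Col4a6 and Col5a1. The median log2 fold change of the 28 genes was -0.03, beside 0.01 for all genes, and 14 of the 28 estimates were below 0 (48.2% of all genes).

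Col6a3, the long chain of type VI collagen (GRCm38 chr1:90765923-90843971, minus strand), differed most. Its libraries were at 17.4, 20.2 and 14.1 CPM in forelimb and 8.92, 8.55 and 7.71 CPM in hindlimb. The lowest forelimb library lay above the highest hindlimb library, and the mean went from 17.3 ± 3.01 to 8.40 ± 0.619 CPM (SD, n = 3; log2 fold change -0.95 ± 0.09 SE, limma adjusted p = 0.00021). Its partner chains did not pass: Col6a1 was at 10.4, 10.98 and 7.90 against 8.28, 9.73 and 6.75 CPM (-0.22 ± 0.09, limma adjusted p = 0.176), and Col6a2 at 9.28, 12.1 and 6.86 against 8.52, 9.26 and 6.71 CPM (-0.16 ± 0.11, limma adjusted p = 0.398). Both overlapped between the limbs. The groups did not overlap either for Col26a1, a secreted collagen with an EMI domain, at 209.7, 212.9 and 169.3 CPM in forelimb and 166.8, 167.1 and 129.9 CPM in hindlimb (-0.35 ± 0.04, limma adjusted p = 0.00086).

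Among the fibril-associated chains, Col16a1 was at 12.7, 15.2 and 12.2 CPM in forelimb and 9.73, 8.04 and 9.14 CPM in hindlimb, without overlap (-0.53 ± 0.10, limma adjusted p = 0.0139). Col12a1, found on type I fibrils, was at 51.6, 54.1 and 34.9 against 44.8, 42.7 and 29.2 CPM, where replicate 3 of forelimb lay below hindlimb replicates 1 and 2 (-0.26 ± 0.05, limma adjusted p = 0.0165). Col14a1 was at 4.35, 3.92 and 3.60 against 2.64, 3.59 and 2.14 CPM; the groups did not overlap but it missed the threshold (-0.40 ± 0.12, limma adjusted p = 0.0819). In all, 6 of 28 genes did not overlap between the limbs, each lower in hindlimb, beside 11.2% of all genes (5.87% higher and 5.32% lower). Col8a2 and Col7a1, the anchoring fibril chain under epidermis, were the others without overlap, and neither passed (-0.42 ± 0.13 and -0.19 ± 0.10).

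Of the membrane-spanning chains, Col17a1, the hemidesmosome collagen of basal keratinocytes, was at 4.27, 3.18 and 2.80 CPM in forelimb and 6.49, 6.54 and 4.14 CPM in hindlimb (0.60 ± 0.11, limma adjusted p = 0.0128). Col23a1 was at 101.2, 99.5 and 65.9 against 85.1, 84.3 and 54.2 CPM (-0.25 ± 0.04, limma adjusted p = 0.00772). In both genes the hindlimb library differed the same way from the forelimb library of the same number in 3 of 3 pairs, while the groups overlapped through replicate 3. Col4a6, a type IV chain of epithelial basement membranes, was at 5.85, 6.08 and 4.995 against 8.89, 9.30 and 5.82 CPM (0.42 ± 0.10, limma adjusted p = 0.0335). Its neighbour Col4a5, which starts 1.31 kb away on the opposite strand of chromosome X, was at 29.7, 32.2 and 20.9 against 31.6, 30.9 and 22.7 CPM (0.05 ± 0.06, limma adjusted p = 0.689).

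Col5a1, a regulator of fibril diameter, was at 126.6, 140.4 and 46.7 CPM in forelimb and 163.6, 153.4 and 52.1 CPM in hindlimb (0.22 ± 0.06, limma adjusted p = 0.0494), and its partner Col5a2 at 296.3, 333.4 and 205.7 against 374.4, 346.2 and 245.5 CPM (0.22 ± 0.06, limma adjusted p = 0.0572). Col1a1 was at 100.4, 124.4 and 22.5 against 119.6, 111.8 and 22.9 CPM, with replicate 3 far below the others in both limbs (0.04 ± 0.07). Col1a2 was at 580.6, 635.4 and 297.0 against 593.8, 563.0 and 269.1 CPM, also overlapping (-0.10 ± 0.05). Col3a1 was at 965.5, 1011 and 673.5 against 1144, 1076 and 651.2 CPM (0.10 ± 0.06). Col4a1 was at 721.5, 805.3 and 435.7 against 818.0, 816.3 and 395.1 CPM (0.02 ± 0.07), and Col4a2 at 356.7, 404.3 and 174.4 against 432.5, 406.2 and 160.7 CPM (0.06 ± 0.07). None of these 5 genes passed, with limma adjusted p from 0.320 (Col1a2) to 0.888 (Col4a1).

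The calls of Col6a3 and Col26a1 held in each of the 6 fits that left out 1 library. Col5a1 lost its call without any 1 of the 6 (limma adjusted p from 0.0539 to 0.248), with the replicate block (limma adjusted p = 0.0948) and under each of the 3 other scalings. Col4a6 lost its call without forelimb replicate 2 and without hindlimb replicate 1 or 2 (0.0911, 0.155 and 0.161) and with the block (0.0579). Col12a1 kept its call only without forelimb replicate 1, and missed it without forelimb replicate 2 or 3 (0.0567 and 0.0778) and without hindlimb replicate 1, 2 or 3 (0.0669, 0.119 and 0.0757). Col23a1 missed it without replicate 3 of forelimb (0.0577) and without hindlimb replicate 2 or 3 (0.0612 and 0.0564). Col17a1 missed it without hindlimb replicate 1 or 2 (0.0733 and 0.0634), and Col16a1 without hindlimb replicate 2 (0.0643). The number of collagen genes called was 5 without replicate 3 of forelimb or of hindlimb, 4 without hindlimb replicate 1 and 2 without hindlimb replicate 2. The shares of all genes called in these 4 fits were 3.4%, 3.41%, 2.91% and 3.34%, against 5.87% with every library.

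**Figure D2:**
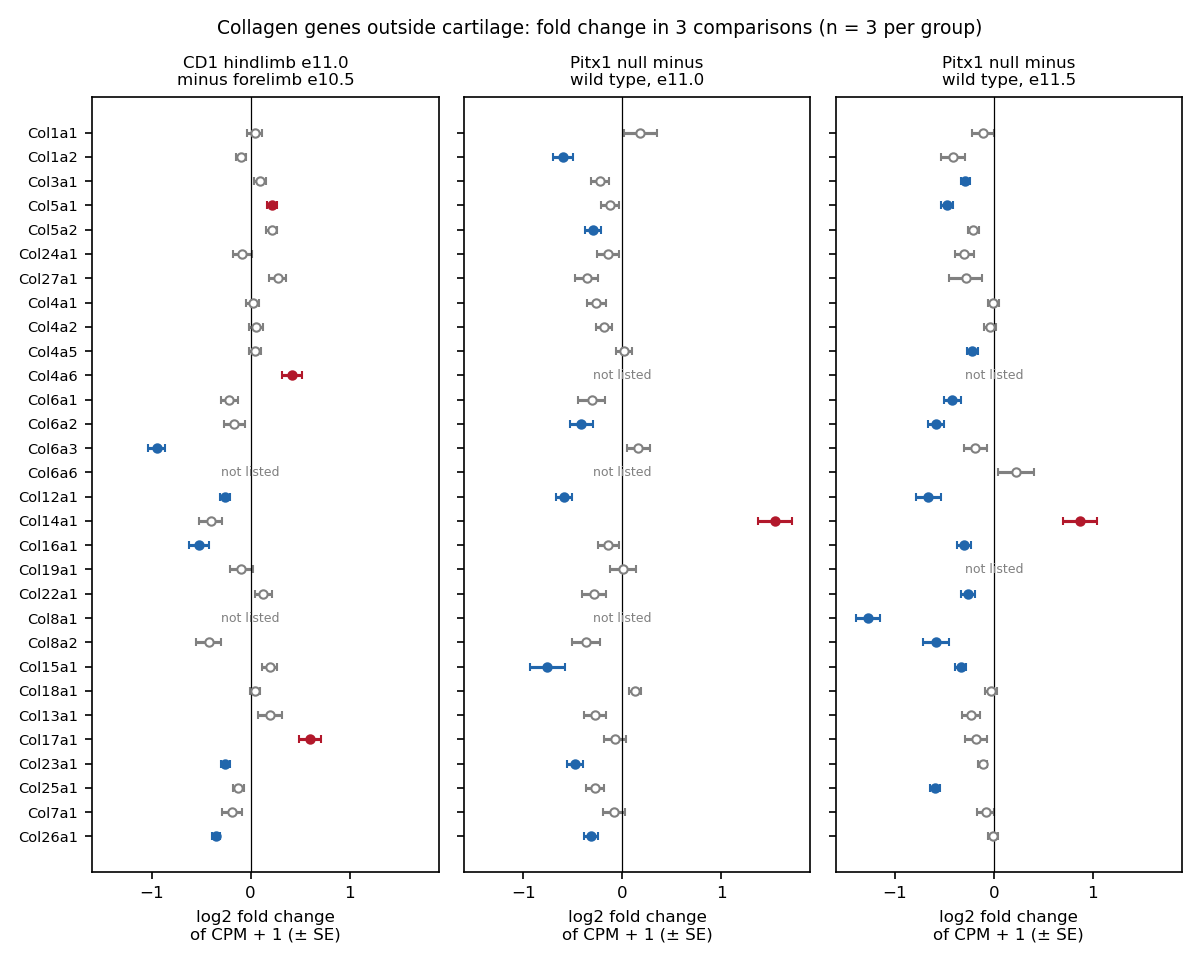
Log2 fold change of CPM + 1 (horizontal, ± SE) for each collagen gene in the 3 comparisons, 3 libraries per group; filled red points passed as higher, filled blue points as lower, and open grey points did not pass. Col14a1 lies to the right in both Pitx1 comparisons and most other filled points there lie to the left.

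At e11.0, 8 of 27 collagen genes (29.6%) passed between Pitx1 null and wild-type hindlimb, 1 higher and 7 lower in the null, against 13.1% of all 14027 genes (4.73% higher and 8.41% lower). Col14a1 rose, and Col12a1, Col1a2, Col5a2, Col6a2, Col15a1, Col23a1 and Col26a1 fell. The median log2 fold change was -0.26 over the 27 genes and -0.07 over all genes, and 21 of 27 estimates were below 0 (62.3% of all genes). The split depends on scaling: it was 1 higher and 5 lower with trimmed-mean or upper-quartile scaling, and 2 higher and 4 lower with median-ratio scaling, which added Col18a1 as higher (0.23, limma adjusted p = 0.0481). Over all genes the split went from 664 higher and 1179 lower to 1064 and 524, 984 and 567, and 1326 and 403 under the trimmed-mean, upper-quartile and median-ratio scalings, while 21, 21 and 19 of the 27 collagen estimates lay below 0.

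Col14a1 (GRCm38 chr15:55307750-55520803, plus strand) had the largest change of the set. Its wild-type libraries were at 2.67, 2.65 and 4.83 CPM and its null libraries at 9.88, 14.2 and 10.7 CPM. The lowest null library was above the highest wild-type library, and the mean went from 3.38 ± 1.25 to 11.6 ± 2.29 CPM (SD, n = 3; log2 fold change 1.54 ± 0.17 SE, limma adjusted p = 0.00116). Col12a1, which like Col14a1 binds the surface of type I fibrils, went the other way, from 37.8, 35.4 and 42.5 to 26.1, 24.5 and 25.1 CPM, without overlap (-0.59 ± 0.08, limma adjusted p = 0.00404). The other fibril-associated chains did not pass, with Col16a1 at -0.14 ± 0.11, Col22a1 at -0.29 ± 0.12 and Col19a1 at 0.01 ± 0.13.

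Of the type I and V chains, Col1a2 was at 258.2, 208.8 and 353.0 CPM in wild type and 169.3, 166.5 and 193.3 CPM in the null, without overlap (-0.60 ± 0.10, limma adjusted p = 0.00852). Col1a1 was at 42.2, 29.2 and 109.7 against 45.6, 51.7 and 84.5 CPM, a spread led by replicate 3 in both groups (0.18 ± 0.17, limma adjusted p = 0.454). Without wild-type replicate 2 that estimate turned to -0.05. Col5a2 was at 209.3, 228.2 and 189.8 against 177.9, 200.4 and 137.4 CPM; the null was lower in 3 of 3 same-numbered pairs, and the groups overlapped (-0.29 ± 0.08, limma adjusted p = 0.0399). Col5a1, at 81.0, 67.4 and 136.9 against 73.0, 72.4 and 108.6 CPM, did not pass (-0.13 ± 0.09, limma adjusted p = 0.334). Col3a1 was at 793.1, 766.9 and 798.5 against 686.9, 765.6 and 577.8 CPM, with null replicate 2 just below the lowest wild-type library (-0.23 ± 0.09, limma adjusted p = 0.0954).

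Of the basement membrane chains, Col15a1, a multiplexin that links basement membranes to the fibrils beneath, was at 24.0, 14.2 and 21.8 CPM in wild type and 13.1, 11.4 and 9.20 CPM in the null, without overlap (-0.76 ± 0.18, limma adjusted p = 0.0263). Col18a1, its closest relative, was at 329.5, 328.6 and 631.7 against 371.0, 347.6 and 694.9 CPM, higher in the null in 3 of 3 pairs but not past the threshold (0.13 ± 0.06, limma adjusted p = 0.171). Col4a1, at 478.6, 362.7 and 511.7 against 376.1, 348.4 and 392.3 CPM, did not pass (-0.26 ± 0.10, limma adjusted p = 0.0888). It did pass with the replicate block (limma adjusted p = 0.0287) and without wild-type replicate 2 (limma adjusted p = 0.00046). Col4a2, which is transcribed from the same start region in the other direction, was at 261.2, 221.4 and 378.4 against 225.8, 217.6 and 303.7 CPM (-0.18 ± 0.08, limma adjusted p = 0.128). Endothelial markers fell for 8 of 12 genes in this comparison, with summed levels of 235.4 to 322.4 CPM in wild type and 149.9 to 246.8 CPM in the null. With trimmed-mean scaling 5 fell and with median-ratio scaling 4, and their part in these results was not tested.

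Col6a2 fell from 5.35, 4.603 and 6.83 to 3.82, 3.80 and 4.10 CPM, without overlap (-0.41 ± 0.12, limma adjusted p = 0.0440). Its partners Col6a1, at 5.50, 3.91 and 6.18 against 4.04, 3.25 and 4.62 CPM (-0.31 ± 0.13, limma adjusted p = 0.126), and Col6a3, at 5.40, 5.81 and 11.9 against 7.28, 7.25 and 10.6 CPM (0.16 ± 0.12, limma adjusted p = 0.342), overlapped between genotypes. Col23a1, a membrane-spanning chain, went from 56.0, 56.5 and 69.2 to 43.8, 42.4 and 43.0 CPM (-0.48 ± 0.08, limma adjusted p = 0.00901). Col26a1 went from 122.6, 116.4 and 130.8 to 96.7, 89.1 and 111.6 CPM (-0.32 ± 0.07, limma adjusted p = 0.0227). In both, the highest null library lay below the lowest wild-type library. Altogether 10 of 27 genes did not overlap between genotypes, 1 higher and 9 lower, beside 18.5% of all genes (4.78% higher and 13.7% lower), and 17 of 27 were lower in the null in each same-numbered pair, beside 39.2% of all genes. Col7a1, Col13a1 and Col17a1 did not pass (-0.08 ± 0.11, -0.28 ± 0.11 and -0.08 ± 0.11).

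Leaving out 1 library moved these calls a great deal. Col14a1 and Col12a1 were called in each of the 6 fits, and they were the only 2 of the set called without wild-type replicate 1, without wild-type replicate 3 or without null replicate 3. Calls over all 14027 genes dropped in the same fits, from 664 higher and 1179 lower with every library. They were 39 and 77 without wild-type replicate 1, 72 and 121 without wild-type replicate 3, and 71 and 125 without null replicate 3. Under those 3 omissions the limma adjusted p of Col1a2 was 0.0812, 0.0661 and 0.0671, that of Col15a1 was 0.156, 0.162 and 0.161, and that of Col23a1 was 0.0508, 0.0776 and 0.0766. For Col26a1 it was 0.124, 0.0782 and 0.0801, for Col5a2 0.101, 0.217 and 0.219, and for Col6a2 0.179, 0.238 and 0.233. Without null replicate 2, Col15a1 (0.0779), Col26a1 (0.139), Col5a2 (0.0788) and Col6a2 (0.122) also missed the threshold, and without null replicate 1, Col5a2 (0.102) and Col6a2 (0.0666). Without wild-type replicate 2, 16 genes of the set passed, 15 of them lower, and 37.6% of all genes passed too. With the replicate block 12 passed, 11 of them lower, adding Col4a1, Col27a1 (0.022), Col8a2 (0.0439) and Col25a1 (0.0387), beside 24.5% of all genes. Col5a2 and Col6a2 missed the threshold under each of the 3 other scalings, and Col26a1 under median-ratio scaling (0.0606).

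**Figure D3:**
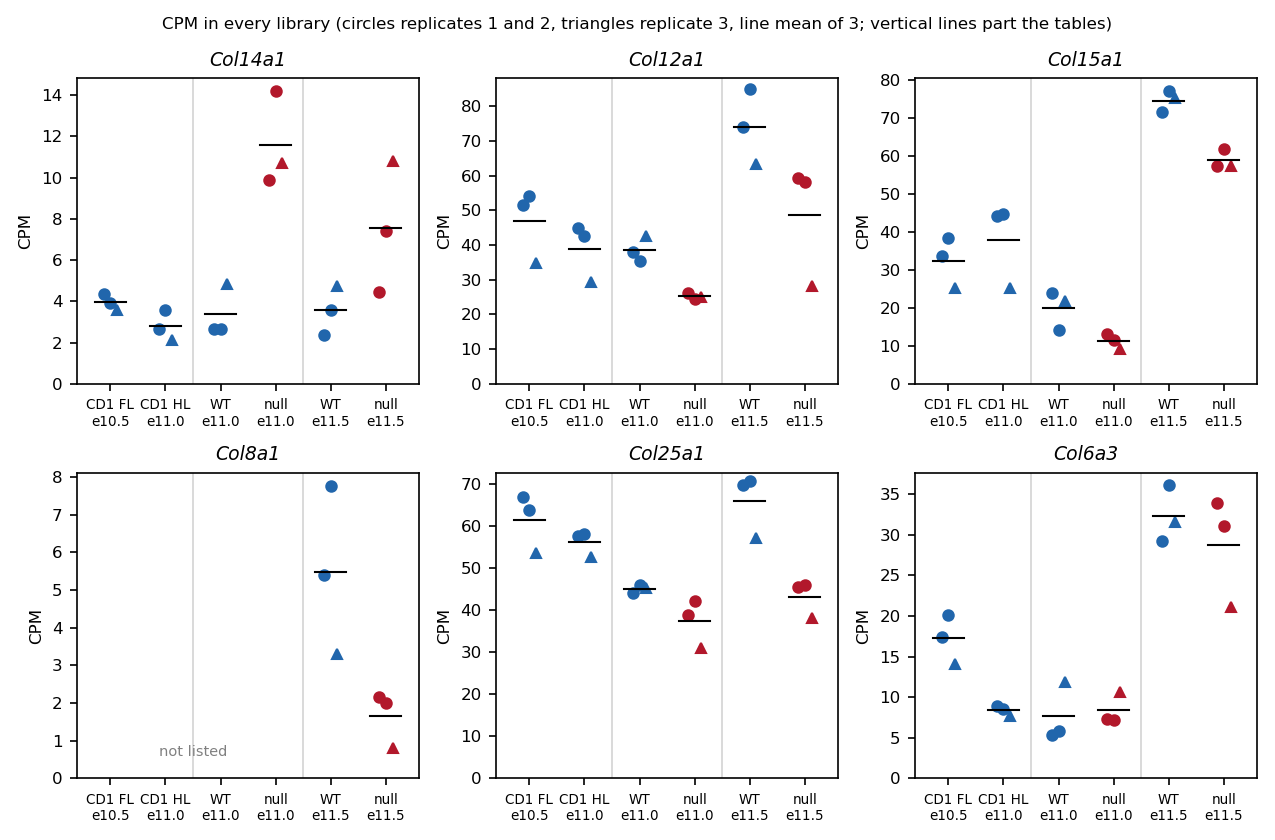
CPM (vertical, from 0) of Col14a1, Col12a1, Col15a1, Col8a1, Col25a1 and Col6a3 in every library of the 6 groups; circles are replicates 1 and 2, triangles replicate 3, red the Pitx1 null, and the short line is the mean of 3. Col14a1 lies above its wild type in every null library at e11.0, while at e11.5 the lowest null library, at 4.46 CPM, lies within the wild-type range.

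At e11.5, 13 of 28 collagen genes (46.4%) passed between Pitx1 null and wild type, 1 higher and 12 lower, against 10.8% of all 13478 genes (2.83% higher and 7.96% lower). Col14a1 again rose. The genes that fell were Col3a1 and Col5a1 of the fibrillar chains, Col6a1 and Col6a2 of type VI, Col12a1, Col16a1 and Col22a1 of the fibril-associated chains, both chains of type VIII (Col8a1 and Col8a2), and Col4a5, Col15a1 and Col25a1. The median log2 fold change was -0.25 over the 28 genes and -0.02 over all genes, and 26 of 28 estimates were below 0 (55.9% of all genes). The split was 1 higher and 10 lower with trimmed-mean or median-ratio scaling, with 23 estimates below 0, while over all genes it went from 382 higher and 1073 lower to 691 and 917 or 743 and 919.

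The proximal promoters of 4 genes that fell at e11.5, and whose call held when any 1 library was left out, are shown because all 4 were lower in the null. Col6a2 also held, but has 2 RefSeq starts and is not shown. Each run is the 250 bases before the RefSeq start on GRCm38.p6, 5′ to 3′ on the gene's strand, with capitals marking a GC box (GGGCGG, either strand) or a CCAAT box. They lie at chr4:47207762-47208011 (Col15a1, plus strand), chr3:130180595-130180844 (Col25a1, plus strand), chr2:27886175-27886424 (Col5a1, plus strand) and chr16:57754738-57754987 (Col8a1, minus strand).
Col15a1: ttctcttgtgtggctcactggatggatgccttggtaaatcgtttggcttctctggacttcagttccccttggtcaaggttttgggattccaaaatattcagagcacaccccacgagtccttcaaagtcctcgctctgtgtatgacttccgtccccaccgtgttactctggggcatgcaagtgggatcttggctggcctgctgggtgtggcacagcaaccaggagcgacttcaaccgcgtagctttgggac
Col25a1: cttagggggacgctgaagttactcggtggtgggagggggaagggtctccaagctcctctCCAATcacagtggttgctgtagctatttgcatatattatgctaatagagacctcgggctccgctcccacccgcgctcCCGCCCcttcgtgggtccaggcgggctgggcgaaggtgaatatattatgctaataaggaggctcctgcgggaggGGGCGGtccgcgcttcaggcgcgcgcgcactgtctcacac
Col5a1: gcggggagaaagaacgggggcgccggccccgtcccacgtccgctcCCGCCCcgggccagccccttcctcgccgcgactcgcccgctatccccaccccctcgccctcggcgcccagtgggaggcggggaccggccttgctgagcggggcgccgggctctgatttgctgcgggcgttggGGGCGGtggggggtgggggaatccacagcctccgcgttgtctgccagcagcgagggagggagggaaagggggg
Col8a1: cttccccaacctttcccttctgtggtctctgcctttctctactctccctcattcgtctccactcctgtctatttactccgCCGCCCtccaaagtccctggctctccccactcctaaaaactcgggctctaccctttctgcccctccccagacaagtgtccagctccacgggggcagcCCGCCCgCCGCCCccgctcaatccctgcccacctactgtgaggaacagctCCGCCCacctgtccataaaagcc
The RefSeq start of Col25a1 lies inside the longer GENCODE gene. GC content ran from 53.6% (Col15a1) to 76.4% (Col5a1). Col8a1 held 4 GC boxes, Col5a1 2 and Col25a1 2 with 1 CCAAT box, and Col15a1 held neither motif in this window. RefSeq windows of 300 bases (250 before to 50 after the start) were found for 24 of the 30 genes, 26 windows in all. The GC box was in 17 of 26 windows, against 35.7% of 32851 promoters of the same length, and the CCAAT box in 9, against 37.4%. TATAAA was in 3, against 13.6%. The letters TAATCC, a core recognised by bicoid-type homeodomains such as Pitx1, were in 0 of 26 windows on either strand, against 7.06% of all promoters, which says only that these letters are not in these windows.

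Col25a1, a membrane-spanning collagen known from motor nerve targeting (GRCm38 chr3:130131501-130599877, plus strand), had the smallest p of the set. It went from 69.8, 70.5 and 57.1 CPM in wild type to 45.5, 46.0 and 38.0 CPM in the null, with no overlap (log2 fold change -0.60 ± 0.05, limma adjusted p = 0.00043). Col8a1 (GRCm38 chr16:57624258-57754737, minus strand) had the largest fold change. It was at 5.40, 7.76 and 3.31 CPM in wild type and 2.15, 2.01 and 0.802 CPM in the null, so that the highest null library was below the lowest wild-type library (-1.28 ± 0.12, limma adjusted p = 0.00092). Its partner Col8a2 went from 3.35, 4.28 and 3.41 to 2.05, 2.91 and 1.51 CPM, without overlap (-0.59 ± 0.13, limma adjusted p = 0.0268). Type VIII is a short-chain collagen of vessel walls and of the membrane under the corneal endothelium.

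Among fibrillar chains, Col5a1 was at 184.9, 205.2 and 205.8 CPM in wild type and 133.8, 150 and 144.1 CPM in the null (-0.48 ± 0.06, limma adjusted p = 0.00235). Col3a1 was at 968.7, 1055 and 1010 against 815.4, 835.5 and 831.3 CPM (-0.29 ± 0.05, limma adjusted p = 0.00956). Each was separated in full between the genotypes. Col1a2, at 948.0, 1055 and 967.5 against 911.2, 832.9 and 538.4 CPM, was separated too, with the null replicate 3 far below the others, and missed the threshold (-0.41 ± 0.12, limma adjusted p = 0.0543). Col5a2, at 162.2, 183.2 and 178.4 against 157.3, 151.7 and 143.9 CPM, missed it as well (-0.21 ± 0.06, limma adjusted p = 0.0556). Col1a1 overlapped, at 268.2, 333.7 and 421.5 against 306.6, 318.5 and 306.6 CPM (-0.11 ± 0.11, limma adjusted p = 0.536).

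Both called type VI chains were lower in every null library than in any wild-type library. Col6a2 went from 31.8, 35.9 and 31.2 to 24.4, 23.2 and 17.8 CPM (-0.58 ± 0.08, limma adjusted p = 0.00339) and Col6a1 from 16.5, 19.0 and 18.6 to 13.6, 14.2 and 11.9 CPM (-0.42 ± 0.09, limma adjusted p = 0.0178). Col6a3, at 29.2, 36.1 and 31.6 against 33.9, 31.1 and 21.1 CPM, overlapped (-0.19 ± 0.12, limma adjusted p = 0.327). Col6a6, listed in this table alone, was at 0.929, 1.93 and 1.28 against 1.32, 2.38 and 1.60 CPM (0.22 ± 0.18, limma adjusted p = 0.441).

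Of the fibril-associated chains, Col12a1 was at 74.0, 84.9 and 63.3 CPM in wild type and 59.3, 58.3 and 28.2 CPM in the null, without overlap (-0.66 ± 0.13, limma adjusted p = 0.0140). Col14a1 was at 2.36, 3.56 and 4.76 against 4.46, 7.43 and 10.8 CPM, higher in the null in 3 of 3 same-numbered pairs, although null replicate 1 lay within the wild-type range (0.87 ± 0.17, limma adjusted p = 0.0152). Col16a1 was at 14.0, 14.1 and 19.8 against 11.3, 10.3 and 17.1 CPM, overlapping through replicate 3 (-0.30 ± 0.07, limma adjusted p = 0.0334). Col22a1, a collagen of tissue junctions, was at 10.9, 11.3 and 11.1 against 9.09, 9.07 and 9.20 CPM, without overlap (-0.26 ± 0.07, limma adjusted p = 0.0490).

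Basement membrane collagens were split. Col15a1 went from 71.5, 77.1 and 75.2 to 57.3, 61.8 and 57.4 CPM (-0.34 ± 0.06, limma adjusted p = 0.00737) and Col4a5 from 33.4, 31.4 and 31.8 to 27.3, 28.9 and 26.5 CPM (-0.22 ± 0.06, limma adjusted p = 0.0491), both without overlap. Col4a1, at 669.6, 695.6 and 674.5 against 633.9, 688.4 and 709.8 CPM (-0.01 ± 0.05), and Col4a2, at 373.9, 405.7 and 396.3 against 347.2, 398.7 and 396.6 CPM (-0.04 ± 0.06), overlapped, with limma adjusted p of 0.949 and 0.670, and the Col4a1 estimate was above 0 under trimmed-mean (0.03) and median-ratio scaling (0.03). Endothelial markers fell for 2 of 12 genes at this stage, with sums of 454.1 to 499.7 CPM in wild type and 397.2 to 468.7 CPM in the null; 1 fell with trimmed-mean and 0 with median-ratio scaling, and their part was not tested. Col18a1, Col26a1 and Col23a1 did not pass either (-0.03 ± 0.06, -0.01 ± 0.05 and -0.11 ± 0.05). Col7a1, Col13a1 and Col17a1 were not called at this stage (-0.08 ± 0.09, -0.23 ± 0.09 and -0.18 ± 0.11). Altogether 14 of 28 genes did not overlap between genotypes, all lower in the null, beside 16.5% of all genes (5.48% higher, and 1481 of 13478 genes lower).

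Col5a1, Col6a2, Col8a1, Col15a1 and Col25a1 were called in each of the 6 fits without 1 library. Col4a5 and Col22a1 were called in none of them (limma adjusted p from 0.0641 to 0.232 and from 0.0606 to 0.197), and the block (0.0546 and 0.0538) and the 3 other scalings also ended both calls. Without null replicate 2, 6 genes of the set were called, and Col3a1 (0.0515), Col6a1 (0.059), Col12a1 (0.0551), Col14a1 (0.0808) and Col16a1 (0.133) were lost too. Without replicate 3 of wild type or of the null 7 were called, and the losses were Col6a1 (0.115 and 0.109), Col14a1 (0.07 and 0.0729), Col16a1 (0.077 and 0.0755) and Col8a2 (0.162 and 0.158). Calls over all genes dropped too, from 382 higher and 1073 lower with every library. They were 60 and 373 without null replicate 2, 100 and 365 without wild-type replicate 3, and 96 and 375 without null replicate 3. Without wild-type replicate 2, Col6a1 (0.054), Col16a1 (0.0992) and Col8a2 (0.0706) missed the threshold, and without wild-type replicate 1, Col14a1 (0.0514) and Col16a1 (0.0847). The block added Col27a1 as lower (0.0319).

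Of the 8 genes called at e11.0 and the 13 at e11.5, 4 were shared (50% and 30.8% of each list), each in the same direction, namely Col6a2, Col12a1, Col14a1 and Col15a1. The e11.0 list and the CD1 list of 8 shared 3 (37.5% of each), Col12a1, Col23a1 and Col26a1, lower in the null as in CD1 hindlimb. The CD1 and e11.5 lists shared 3 (37.5% and 23.1%), Col12a1 and Col16a1 in the same direction and Col5a1 in opposite ones. Of all genes, 5.87%, 13.1% and 10.8% were called in CD1, at e11.0 and at e11.5. The share of all genes called in both comparisons of a pair was not counted, so these overlaps have no background. The change from e11.0 to e11.5 in the null effect was tested in a joint fit of both Pitx1 tables, where stage and library type cannot be told apart. It found 0 of the 26 genes listed in both (limma, beside 0.363% of 12935 genes, 0.17% higher and 0.193% lower), with 6 at an unadjusted p under 0.05 (20.6% of all genes). Those 6 were Col23a1 (0.36 ± 0.09, limma adjusted p = 0.105) and Col26a1 (0.31 ± 0.09, 0.129), whose estimates were nearer 0 at e11.5, Col5a1 (-0.35 ± 0.12, 0.152), Col25a1 (-0.32 ± 0.11, 0.152) and Col4a5 (-0.24 ± 0.10, 0.21), whose estimates were lower at e11.5, and Col14a1 (-0.67 ± 0.28, 0.20). Without e11.0 wild-type replicate 2, Col4a1 (0.39), Col15a1 (0.68), Col23a1 (0.39) and Col26a1 (0.32) passed, with 19.8% of all genes.

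Chains of the same trimer were compared as ratios of CPM per kb in each library. The Col6a3 to Col6a2 ratio was 1.31, 1.16 and 1.43 in CD1 forelimb and 0.729, 0.643 and 0.800 in hindlimb. It was 0.703, 0.879 and 1.21 in e11.0 wild type against 1.32, 1.33 and 1.80 in the null, and 0.640, 0.700 and 0.705 against 0.966, 0.934 and 0.825 at e11.5. In all 3 comparisons the groups were separated, so Col6a3 stood lower relative to Col6a2 in CD1 hindlimb and higher relative to it in the Pitx1 null at both stages. Each gave a two-sided exact permutation p of 0.1, the smallest that 3 against 3 libraries allow, and 15 such ratio tests were run, so that none could pass after adjustment. These tests took no account of run or replicate number. Among the other ratios the Col5a1 to Col5a2 ratio at e11.5 was also separated, at 1.29, 1.27 and 1.30 in wild type and 0.961, 1.12 and 1.13 in the null (exact permutation p = 0.1). The Col1a1 to Col1a2 ratio was below 1 in 17 of 18 libraries, between 0.143 and 1.08, although type I collagen protein holds more alpha 1 than alpha 2 chains. At e11.0 it was 0.309, 0.265 and 0.588 in wild type and 0.510, 0.587 and 0.827 in the null, overlapping by replicate 3 of wild type (exact permutation p = 0.3). It was higher in the second group of each comparison (hindlimb or null) in 3 of 3 same-numbered pairs, in CD1, at e11.0 and at e11.5 alike. The Col4a1 to Col4a2 ratio stayed between 1.15 and 2.22 over all libraries.

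**Figure D4:**
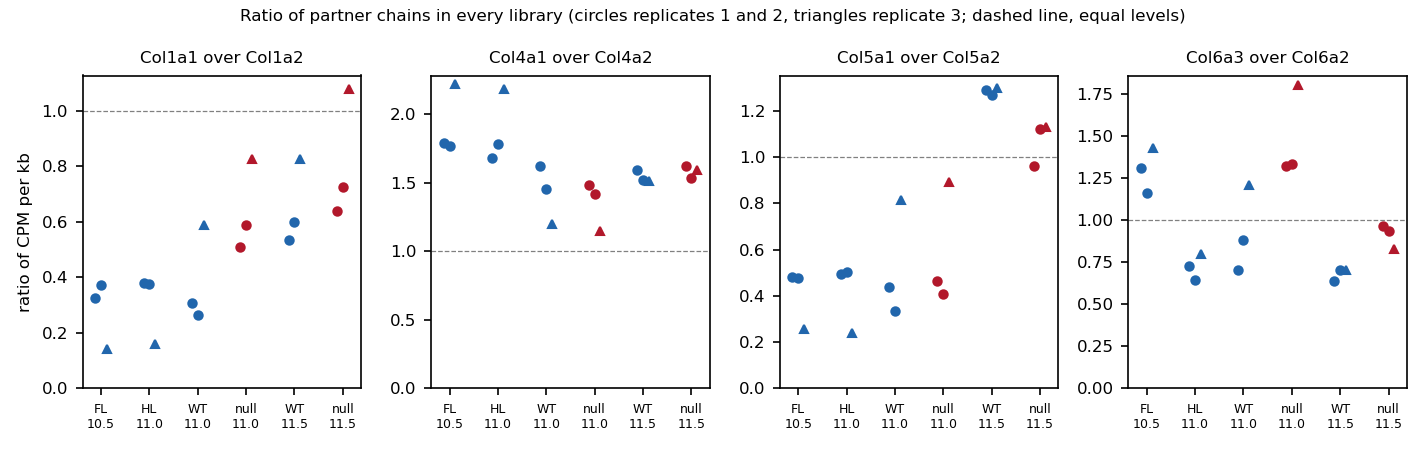
Ratio of CPM per kb (vertical, from 0) for 4 pairs of partner chains in every library of the 6 groups; circles are replicates 1 and 2, triangles replicate 3, red the Pitx1 null, and the dashed line marks equal levels. The Col6a3 to Col6a2 ratio is lower in CD1 hindlimb than in forelimb and higher in the null than in wild type at both stages.

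Genes that process, bind and break down collagen were counted over lists drawn up with earlier results of these data known, and their counts stand beside 5.87%, 13.1% and 10.8% of all genes called in CD1, at e11.0 and at e11.5. Of the synthesis and crosslinking enzymes 1 rose and 3 fell of 24 in CD1 hindlimb, 0 and 5 of 24 in the e11.0 null, and 0 and 6 of 25 in the e11.5 null. The e11.0 balance turned with scaling, to 1 higher and 3 lower with trimmed-mean and 2 higher and 1 lower with median-ratio scaling. In CD1 the lysyl oxidases Loxl2 (-0.68 ± 0.07, limma adjusted p = 0.00035) and Lox (-0.79 ± 0.11, 0.00214) and the lysyl hydroxylase Plod2 (-0.36 ± 0.06, 0.00682) fell, all 3 calls holding in each of 6 fits without 1 library. At e11.5 Loxl3 (-0.49 ± 0.07, limma adjusted p = 0.00339), Loxl2 (-0.37 ± 0.06, 0.00485) and Loxl1 (-0.79 ± 0.14, 0.0117) fell. At e11.0 Bmp1, which cleaves procollagen ends, had the smallest p of this list (-0.35 ± 0.07, limma adjusted p = 0.0177) and kept its call in 2 of 6 fits. The median log2 fold changes of the list were 0.02, -0.12 and -0.09, beside 0.01, -0.07 and -0.02 for all genes.

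Of the collagen receptors 0 of 6 passed in CD1, 2 of 6 fell at e11.0 and 1 of 7 fell at e11.5, and with median-ratio scaling the e11.0 list had 1 higher and 1 lower. The integrin chain Itga11 was at 1.34, 1.04 and 1.54 CPM in e11.0 wild type and 0.637, 0.197 and 0.589 CPM in the null; it was listed at that stage only through its wild-type libraries, so its call there, 1 of the 2, supports nothing. It fell at e11.5 from 11.1, 12.8 and 10.1 to 7.47, 5.85 and 3.08 CPM (-0.99 ± 0.15, limma adjusted p = 0.00491), with no overlap, and that call held in 6 of 6 fits without 1 library. In CD1, 1 of 15 laminins, nidogens and other basement membrane partners fell. Of the same list 5 of 15 fell at e11.0 and 4 of 15 at e11.5, with Nid1 as the 1 that rose at e11.5; 4 and 3 fell with trimmed-mean or median-ratio scaling. Lama2, the laminin chain of muscle and nerve, fell by 1.13 ± 0.12 at e11.0 and 0.77 ± 0.10 at e11.5 on the log2 scale, and Nid2 by 0.83 ± 0.10 and 0.35 ± 0.05, each call holding in 6 of 6 fits. Nid1, which bridges laminin and type IV collagen, fell in CD1 hindlimb (-0.35 ± 0.05, limma adjusted p = 0.00374) and rose in the e11.5 null (0.44 ± 0.05, 0.00214).

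Of the fibril partners 1 rose and 2 fell of 15 in CD1 hindlimb, 1 rose and 1 fell of 16 at e11.0, and 0 and 6 of 16 at e11.5. Postn, a matricellular protein of fibre-rich tissue, rose at e11.0 from 7.71, 8.86 and 11.6 to 15.1, 18.2 and 16.7 CPM (0.78 ± 0.12, limma adjusted p = 0.00586), and Tnc, a tenascin of tendon and condensing mesenchyme, fell at e11.5 from 7.26, 9.502 and 10.6 to 3.01, 3.31 and 4.57 CPM (-1.13 ± 0.11, limma adjusted p = 0.00083). Both were separated between the genotypes. Fbln2 (-0.41 ± 0.07, limma adjusted p = 0.00774), fibronectin (Fn1, -0.34 ± 0.07, 0.0232) and the fibril-coating proteoglycan Lum (-0.61 ± 0.14, 0.0245) also fell at e11.5, their calls holding in 6, 2 and 3 of 6 fits without 1 library. Of 9 collagen breakdown genes 1 rose and 3 fell in CD1 hindlimb, while 2 fell in the e11.0 null, 3 fell in the e11.5 null and 0 rose in either. Timp3, an inhibitor of matrix proteases, was higher in CD1 hindlimb (0.35 ± 0.05, limma adjusted p = 0.00154) and lower in the null at e11.0 (-0.49 ± 0.10, 0.0154) and at e11.5 (-0.31 ± 0.06, 0.0178).

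The 6 cartilage collagens that were set aside are given for comparison. In the e11.5 null 6 of 6 fell, with a median log2 fold change of -1.06, beside 12 of 28 and -0.25 for the genes outside cartilage; the difference between the lists was not tested. At e11.0 3 of 6 fell (2 with trimmed-mean and 1 with median-ratio scaling), and in CD1 1 of 6. Of all genes, 7.96% were called lower at e11.5, 8.41% at e11.0 and 3.46% in CD1.

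Marker genes of other cell types moved in the same comparisons, and their part in the collagen results was not tested. Counts are over the markers each table lists, and ranges are of their summed level in wild type and in the null. Surface ectoderm markers rose for 6 of 14 at e11.0 (384.4 to 937.3 and 506.8 to 1143 CPM) and 2 of 14 at e11.5 (352.9 to 410.1 and 417.9 to 495.7 CPM), but for 7 of 14 at each stage with trimmed-mean or median-ratio scaling. Under these scalings higher calls over all genes rose too, from 664 to 1064 and 1326 at e11.0 and from 382 to 691 and 743 at e11.5. Lower calls over all genes went from 1179 to 524 and 403 and from 1073 to 917 and 919. Replicate 3 held the highest ectoderm sum in both groups at e11.0. Muscle precursor markers fell for 3 of 5 in CD1 hindlimb, 3 of 4 in the e11.0 null and 8 of 8 in the e11.5 null (7 with trimmed-mean or median-ratio scaling; 113.2 to 137.0 and 74.4 to 84.6 CPM). Cartilage markers fell for 5 of 9 at e11.0 (4 with trimmed-mean and 3 with median-ratio scaling) and 9 of 10 at e11.5 (1128 to 1243 and 577.9 to 713.7 CPM). This list repeats Col2a1, Col9a1, Col9a3, Col11a1 and Col11a2 of the cartilage collagens above. The markers beyond them that fell were Sox9 and Sox5 at e11.0 and Matn4, Sox6, Sox9 and Sox5 at e11.5. Pericyte and smooth muscle markers fell for 3 of 7 and rose for 1 at e11.0, where 0 fell with trimmed-mean or median-ratio scaling, and fell for 2 of 7 at e11.5. Limb mesenchyme markers fell for 4 of 10 at e11.0 (3 with either of those scalings; 1378 to 1711 and 1062 to 1422 CPM), while at e11.5 3 rose and 1 fell of 10 (1963 to 2183 and 1888 to 2192 CPM). Erythroid genes rose for 4 of 11 in CD1 hindlimb and 1 of 12 at e11.0, where their sum reached 11220 CPM in replicate 3 of wild type and 17730 CPM in replicate 3 of the null.

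The authors' deposited table of adjusted p-values, from their own count model, called 12 of 28 collagen genes in CD1 (5 higher, 7 lower; 12.5% of all genes), 7 of 27 at e11.0 (1 higher, 6 lower; 20.6%) and 16 of 28 at e11.5 (1 higher, 15 lower; 19.6%). It added Col5a2, Col27a1, Col14a1 and Col8a2 in CD1 and Col1a2, Col5a2 and Col24a1 at e11.5 to the genes called here, and at e11.0 it did not call Col5a2 (0.0764 in the authors' deposited table).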

How the data were processed

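RNA of 18 limb bud libraries was measured by sequencing. Reads were aligned to GRCm38 (mm10) with STAR, counted with featureCounts and tested with edgeR, per the submitters' processing notes; versions and strand setting are not given in the sources used here. The authors deposited 3 tables, normalised separately, with CPM per library. Per the file headers the authors' tables also hold log2 fold changes and mean log2 CPM, a likelihood-ratio score, and an unadjusted and an adjusted p-value. The CPM values were fitted with limma 3.58.1 (R 4.3.3) on log2(CPM + 1) with run and group as terms and 3 residual degrees of freedom in each table. The model was also run on simulated counts with a spread set in advance and changes larger than most called here. That run therefore does not speak for the calls above. Same-numbered libraries deviated together (correlations 0.69, 0.8 and 0.94 for CD1, 0.66, 0.64 and 0.86 for e11.0, and 0.73, 0.83 and 0.91 for e11.5). The numbers were taken to pair the samples in the counts of same-numbered pairs and in the replicate block only. The main fit did not pair samples by number. Replicates 1 and 2 of different groups also correlated (0.75 and 0.85, 0.53 and 0.41, 0.63 and 0.63), so in CD1 these values show the split of replicate 3 rather than the number. Same-numbered libraries share the run by title, except for replicate 3 of CD1, for which the titles name no run.

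Libraries held 17.4 to 53.6 M reads, at which 1 read is at most 0.0575 CPM, so counting error is small for all but the lowest genes. Exon lengths and coordinates are from GENCODE M21, which matched 13513, 13998 and 13457 genes of the 3 tables. Promoters are from RefSeq. The genes named with values are the main chains of types I, III, IV, V and VI, Col14a1 and every collagen gene past the threshold; of partner genes, up to 4 with the smallest adjusted p. The genes and lists were chosen with earlier results of these data known. Alternatives tried were other pseudocounts, filters and scalings, no run term, a replicate block, replicates 1 and 2 alone, each library left out, the authors' adjusted p-values, and, chosen after seeing the data, genes listed in every table.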

Additional observations from a re-analysis of the deposited data

How the results depend on the processing

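Without the run term 0, 0 and 0 collagen genes were called in CD1, at e11.0 and at e11.5 (0 for the stage difference), and with replicates 1 and 2 alone 5, 2 and 7. Few of all genes were called without the run term either: 7 higher and 6 lower (CD1), 1 and 4 (e11.0), 2 and 9 (e11.5). For the stage difference 0 of 12935 genes were called without it. Leaving out 1 library gave 2 to 9, 2 to 16, 6 to 13 and, for the stage difference, 0 to 4 called collagen genes. Calls over all genes moved as well, from 153 higher and 241 lower to 541 and 650 in CD1. They went from 39 and 77 to 1748 and 3525 at e11.0, and from 60 and 373 to 965 and 1662 at e11.5. With 1 library of a group left in its run, that library is assumed to vary like the others. The replicate block gave 6, 12, 12 and 0, and beyond the genes named in the report it changed no other call. Other pseudocounts, a mean of at least 1 CPM, other scalings, leaving out globin, mitochondrial and abundant noncoding genes, and testing only genes listed in all 3 tables (chosen after seeing the data) gave 7 to 8, 6 to 8 and 11 to 13. Over all genes these settings called 319 to 363 higher and 434 to 539 lower in CD1. They called 648 to 1326 and 403 to 1328 at e11.0, and 331 to 743 and 892 to 1114 at e11.5. For called genes 349 alternative values kept the call and direction, 142 lost the call and none turned direction. For the main chains of types I, III, IV, V and VI and Col14a1, where not called, 587 were alike, 13 gained a call and 16 turned direction. Other uncalled genes were not in this count, and some of them changed too. Col18a1 at e11.0 gained a call with median-ratio scaling, and Col26a1 at e11.5 turned from -0.009 to 0.025 with trimmed-mean scaling.

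The turns counted here were all in genes that did not pass. In CD1, without forelimb replicate 1, Col1a1 was -0.048, Col4a1 -0.048 and Col4a2 -0.021; Col4a1 was -0.004 without hindlimb replicate 1 and -0.002 without replicate 2. The ranges over left-out libraries were -0.048 to 0.127 for Col1a1, -0.048 to 0.1 for Col4a1 and -0.021 to 0.142 for Col4a2. At e11.0 Col1a1 ran from -0.046 (without wild-type replicate 2) to 0.458. At e11.5 Col1a1 ran from -0.25 to 0.063, the latter without replicate 3 of either group and with replicates 1 and 2 alone. Col4a1 at e11.5 was 0.027 with trimmed-mean and 0.031 with median-ratio scaling and ran from -0.047 to 0.038, being 0.020 without wild-type replicate 2, and Col4a2 from -0.094 to 0.020. In the stage difference Col3a1 ran from -0.183 to 0.016 and Col6a1 from -0.22 to 0.011. The cause was not tested.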
